A study of Homo sapiens with 2 samples.

Results

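The genes described here defend the cell against oxidants and electrophiles. They comprise the factors around the transcription factor NRF2 and the enzymes of the glutathione, thioredoxin, peroxiredoxin and quinone-detoxifying systems, without the aldo-keto reductases. They were chosen by gene symbol from a list of 51 genes, of which 49 had a probe set with a single gene symbol, out of 19775 genes so named on the array. PRDX5, a peroxiredoxin of mitochondria and peroxisomes, and FTH1, the ferritin heavy chain, had none in the annotation used here and have no value below.

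C4-2B-MDVR cells, an enzalutamide-resistant human prostate cancer line obtained from C4-2B cells through prolonged culture with the drug, were compared with C4-2B cells, the enzalutamide-sensitive parent line. Enzalutamide is an antiandrogen that blocks the androgen receptor. Both lines were grown in RPMI-1640 with serum and received no treatment before RNA was taken, and each was measured on 1 Affymetrix expression array. The free-text description of the C4-2B-MDVR sample names a docetaxel-resistant line, TaxR, while the other labels of that sample name C4-2B-MDVR, and the parent line is likewise described by its docetaxel sensitivity. Groups were taken from the cell line labels.

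NRF2, encoded by NFE2L2, is held in the cytoplasm and marked for degradation by KEAP1. Oxidants and electrophiles modify KEAP1, and NRF2 then enters the nucleus, pairs with a small MAF protein such as MAFG and binds antioxidant response elements in the promoters of detoxifying genes, where BACH1 competes with it as a repressor. This control acts mainly on protein stability, so mRNA of NFE2L2 is no direct measure of NRF2 activity. Glutathione and thioredoxin are the thiol reductants that feed the peroxidases and transferases of these cells.

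With 1 array per line there is no spread between replicates. No p-value or error can be given for any value, and each difference describes these 2 arrays only. Median intensity over all probe sets was 43.5 on the C4-2B-MDVR array and 41.9 on the C4-2B array, and these medians served as the floor under which a probe set was taken as dim. All 11 named markers of prostate luminal epithelium were above the floor on both arrays. Their summed intensity was 14185 in C4-2B-MDVR and 24572 in C4-2B. Most of that gap lay in KLK3, the gene of prostate-specific antigen, at 172 in C4-2B-MDVR and 8379 in C4-2B. KLK2 followed, at 295 in C4-2B-MDVR and 1263 in C4-2B. The remaining luminal markers had log2 differences, C4-2B-MDVR minus C4-2B, from -0.62 in KRT19 to 0.32 in KRT8. Among them KRT8, FOLH1 and HOXB13 were higher in C4-2B-MDVR and the rest lower. Of the markers of other cells, 0 of 2 basal, 2 of 5 fibroblast, 1 of 4 blood and 2 of 3 endothelial genes were above the floor in C4-2B-MDVR, against 1, 2, 0 and 2 in C4-2B. The part of these marker differences in the values below was not tested. In RNA of a whole culture, fewer cells that express a gene and less of its RNA per cell cannot be told apart.

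Of the antioxidant and glutathione genes that could be read, 44 of 46 differed by less than 2-fold between the lines. Of the 46 members above the floor on the brighter array, 1 was 2-fold or more higher in C4-2B-MDVR, the glutathione transferase GSTM3, and 1 was 2-fold or more lower, the quinone reductase NQO2. For comparison, 13437 named genes passed the same floor, of which 3.17% were 2-fold or more higher and 3.50% were 2-fold or more lower, while 2.17% of the members were in each class. Scaling moved both counts of members: quantile normalization gave 3 higher and 0 lower, and median centring gave 1 higher and 2 lower. The median log2 difference (C4-2B-MDVR minus C4-2B) was 0.10 over the members and 0.04 over all genes above the floor. The members ranged from -1.02 to 1.19, and 27 lay above 0 (58.7%, against 55.1% of all genes above the floor) and 19 below. At the lower limit of 1.5-fold, 7 members were higher, against a background of 8.26%, and 3 were lower, against a background of 9.32%. These were GSTM3, HMOX1, TXNIP, ALDH3A2, MGST3, FTL and CAT on the higher side and NQO2, GSR and BACH1 on the lower side. The members' shares were 15.2% higher and 6.52% lower.

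Several members lay next to a limit. HMOX1 lay just short of 2-fold with a log2 difference of 0.996 and GSR at -0.964, while NQO2 was just past it at -1.021. CAT barely reached the 1.5-fold limit, with a ratio of 1.5001. On the higher side GPX2 at 0.48, and on the lower side GSTZ1 at -0.56, were the nearest members that did not reach 1.5-fold. Of the 46 members, 20 (43.5%) were within 1.2-fold, against 53.3% of all genes above the floor.

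**Figure D1:**
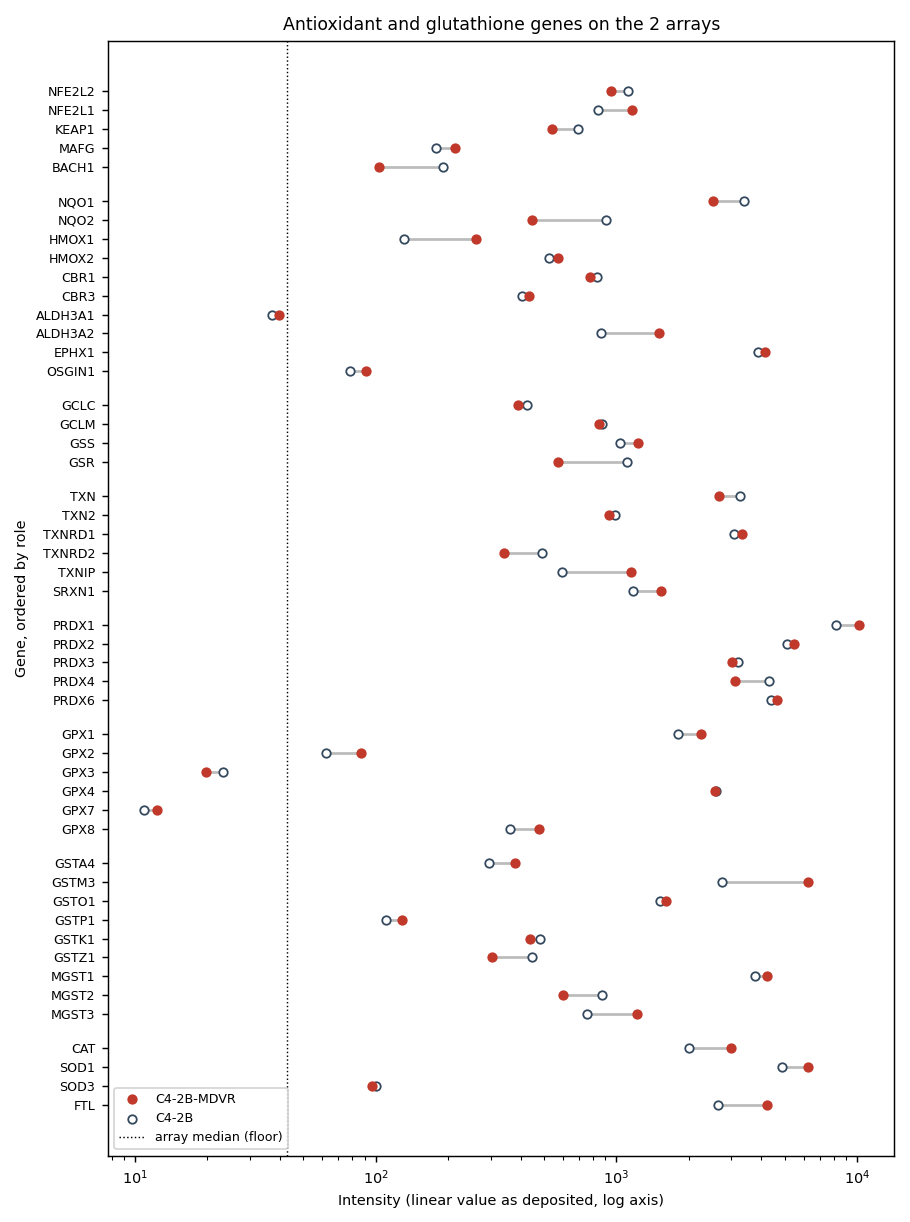
Intensity of the 49 named members on the C4-2B-MDVR array (filled red) and the C4-2B array (open), on a log axis and ordered by role, with gaps between roles. The dotted line is the mean of the 2 array medians used as floors; GPX3, GPX7 and ALDH3A1 lie left of it, and GSTM3 and NQO2 have the widest gaps.

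The factors of the pathway did not share a direction. NFE2L2, the NRF2 gene, had an intensity of 947 in C4-2B-MDVR and 1115 in C4-2B, a log2 difference of -0.23. KEAP1, its inhibitor, had 542 in C4-2B-MDVR and 696 in C4-2B (-0.36). Both were lower in C4-2B-MDVR by less than 1.5-fold, and a second NFE2L2 probe set near the floor lay at 0.14. BACH1, the repressor that competes for the same elements, had 103 in C4-2B-MDVR and 190 in C4-2B, a log2 difference of -0.88 and the greatest among the 5 factors. Its other probe set above the floor, with 56.9 in C4-2B-MDVR and 49.5 in C4-2B, was near it and lay at 0.20, so the 2 BACH1 readings differ in sign. NFE2L1, a related factor known for inducing proteasome genes, had 1163 in C4-2B-MDVR and 841 in C4-2B (0.47). All 3 of its probe sets were higher in C4-2B-MDVR, from 0.22 to 0.75. MAFG, the small MAF partner, had 214 in C4-2B-MDVR and 178 in C4-2B (0.27).

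Genes that are commonly read as a sign of NRF2 activity split evenly. Of NQO1, HMOX1, GCLC, GCLM, TXNRD1 and SRXN1, 3 were higher and 3 lower in C4-2B-MDVR, with a median of 0.04, although GCLM moved to 0.02 with quantile normalization. NQO1, which reduces quinones by 2 electrons at a time, had an intensity of 2524 in C4-2B-MDVR and 3390 in C4-2B (-0.43), and its 3 probe sets were all lower, from -0.61 to -0.40. HMOX1, the inducible heme oxygenase that breaks down heme, had 262 in C4-2B-MDVR and 131 in C4-2B, a ratio of 1.99. It had 1 probe set, so no second reading was at hand. The catalytic and modifier subunits of glutamate-cysteine ligase, which catalyses the rate-limiting step of glutathione synthesis, differed little. GCLC had 390 in C4-2B-MDVR and 427 in C4-2B (-0.13) and GCLM 846 in C4-2B-MDVR and 871 in C4-2B (-0.04). The other probe sets of both above the floor were all below 0, down to -0.53 for GCLC and -0.58 for GCLM. TXNRD1, the cytosolic thioredoxin reductase, had 3337 in C4-2B-MDVR and 3076 in C4-2B (0.12). SRXN1, sulfiredoxin, which repairs overoxidized peroxiredoxins, had 1532 in C4-2B-MDVR and 1170 in C4-2B (0.39).

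Promoter windows were searched for the core of the antioxidant response element, TGACNNNGC on either strand, since NRF2 is known to bind it. Windows run from 250 bases before to 50 after each start site and come from RefSeq on GRCh38.p14. Of the 51 members 40 had a window, and 10 of these held the core, which was found in 16.1% of all 27305 genes in the table. The 10 were KEAP1, CBR1, EPHX1, GCLM, TXNRD1, GPX2, GSTA4, GSTO1, GSTP1 and MGST1. Those of KEAP1, EPHX1 and MGST1 lay in some but not all windows of the gene. Their log2 differences ranged from -0.36 to 0.48 with a median of 0.11, and the 27 members above the floor without the core ranged from -1.02 to 1.19 with a median of 0.10. None of the 10 reached 1.5-fold in either direction, against 8.26% of all genes above the floor higher and 9.32% lower. With 10 genes, no conclusion is drawn from this. With the looser letters TGANNNNGC, the 26 members above the floor with a match ranged from -1.02 to 1.19. The 11 without it ranged from -0.56 to 0.67, so the narrower range of the 10 depends on the letters. Of 14 matches in member windows, 1, in GSTP1, also held the AP-1 site TGACTCA. A match is a description of letters, and elements farther from the start site lie outside these windows.

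The windows of GCLM and TXNRD1, readouts that hold the core, and of GSTM3 and NQO2 are shown 5′ to 3′ on the strand of the gene. GSTM3 and NQO2, the members past 2-fold, hold no match to TGACNNNGC but do match the looser TGANNNNGC. Capitals mark each match to the core on either strand. The positions are chr1:93909381-93909680 (minus strand) for GCLM, chr12:104215529-104215828 (plus strand) for the TXNRD1 start site shown, chr1:109740989-109741288 (minus strand) for GSTM3 and chr6:2999644-2999943 (plus strand) for NQO2.
GCLM: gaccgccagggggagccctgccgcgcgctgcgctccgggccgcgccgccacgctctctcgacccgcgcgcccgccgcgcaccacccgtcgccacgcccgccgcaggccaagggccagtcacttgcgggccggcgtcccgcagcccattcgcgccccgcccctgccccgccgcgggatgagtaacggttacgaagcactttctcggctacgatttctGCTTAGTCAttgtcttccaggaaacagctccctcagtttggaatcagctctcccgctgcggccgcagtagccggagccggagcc
TXNRD1: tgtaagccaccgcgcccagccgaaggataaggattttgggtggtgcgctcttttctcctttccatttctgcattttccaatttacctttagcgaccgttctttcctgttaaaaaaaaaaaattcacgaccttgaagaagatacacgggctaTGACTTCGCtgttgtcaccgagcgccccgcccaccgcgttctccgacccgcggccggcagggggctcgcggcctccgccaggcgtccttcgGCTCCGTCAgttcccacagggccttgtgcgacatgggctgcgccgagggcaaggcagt
GSTM3: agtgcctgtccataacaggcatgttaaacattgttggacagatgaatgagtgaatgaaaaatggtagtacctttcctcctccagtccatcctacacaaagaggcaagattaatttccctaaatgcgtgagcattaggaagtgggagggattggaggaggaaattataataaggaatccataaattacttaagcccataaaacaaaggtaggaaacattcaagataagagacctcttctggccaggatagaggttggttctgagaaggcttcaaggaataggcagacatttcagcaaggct
NQO2: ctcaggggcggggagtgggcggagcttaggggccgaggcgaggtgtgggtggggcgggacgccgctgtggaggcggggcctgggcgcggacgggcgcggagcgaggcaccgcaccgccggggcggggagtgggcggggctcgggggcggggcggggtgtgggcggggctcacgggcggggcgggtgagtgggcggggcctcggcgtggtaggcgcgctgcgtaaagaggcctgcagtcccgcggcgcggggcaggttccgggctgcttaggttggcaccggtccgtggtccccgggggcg
The GCLM window holds 1 match, on the opposite strand, and the TXNRD1 window holds 2, 1 on each strand.

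Among the other quinone, carbonyl, epoxide and heme enzymes, NQO2 and ALDH3A2 differed most. NQO2, a quinone reductase that uses dihydronicotinamide riboside in place of NADPH, had an intensity of 447 in C4-2B-MDVR and 907 in C4-2B, so it was 2.03-fold lower. Its other probe set, with 45.0 in C4-2B-MDVR and 56.7 in C4-2B, was near the floor and lay at -0.33. ALDH3A2, which oxidizes long-chain fatty aldehydes, had 1500 in C4-2B-MDVR and 865 in C4-2B (0.79), and its other probe sets lay at 0.55 and 0.14. HMOX2, the constitutive heme oxygenase (0.13), the carbonyl reductases CBR1 (-0.09) and CBR3 (0.10) and the microsomal epoxide hydrolase EPHX1 (0.11) were within 1.2-fold. OSGIN1, an oxidative stress-induced growth inhibitor, had 90.8 in C4-2B-MDVR and 78.4 in C4-2B (0.21). ALDH3A1, an aldehyde dehydrogenase abundant in cornea, was under the floor on both arrays, at 39.8 in C4-2B-MDVR and 37.0 in C4-2B.

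By the probe sets that stood for the genes, the enzyme that regenerates reduced glutathione differed by more than those that make it. GSR, glutathione reductase, had an intensity of 569 in C4-2B-MDVR and 1111 in C4-2B, so it was 1.95-fold lower. Its other probe set, with 574 in C4-2B-MDVR and 794 in C4-2B, lay at -0.47, so both readings were lower. Dimmer probe sets of GCLC at -0.53 and of GCLM at -0.58 lay farther from 0 than this second GSR reading. The order therefore depends on the probe sets chosen. GSS, glutathione synthetase, had 1227 in C4-2B-MDVR and 1038 in C4-2B (0.24), and its other probe set lay at 0.12.

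In the thioredoxin system the inhibitor differed more than the enzymes. TXNIP, which binds and inhibits thioredoxin and limits glucose uptake, was read by 3 probe sets. Their intensities were 1146, 813 and 832 in C4-2B-MDVR, against 596, 380 and 318 in C4-2B, with log2 differences of 0.94, 1.10 and 1.39. All 3 were higher, and 2 of them passed 2-fold, but the brightest, which stood for the gene, did not. TXN, cytosolic thioredoxin, had 2662 in C4-2B-MDVR and 3249 in C4-2B (-0.29). TXN2, the mitochondrial thioredoxin, lay at -0.07 with its other probe set at 0.07. TXNRD2, the mitochondrial reductase, had 342 in C4-2B-MDVR and 491 in C4-2B (-0.52), with a second probe set near the floor at 0.05.

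TXNIP is known to be induced by glucose through a carbohydrate response element, and its window at chr1:145996530-145996829 (GRCh38.p14, minus strand) is shown with that element in capitals. The letters searched, on both strands, were a pair of CACGAG with 5 bases between them and were chosen after the TXNIP values were seen. They are those of the element in the TXNIP window, so the match of TXNIP was fixed in advance. This pair was found in 2 of 35116 windows, and TXNIP was the 1 member that held it. Such a count is no background for the match, and a link to the TXNIP difference was not tested.
TXNIP: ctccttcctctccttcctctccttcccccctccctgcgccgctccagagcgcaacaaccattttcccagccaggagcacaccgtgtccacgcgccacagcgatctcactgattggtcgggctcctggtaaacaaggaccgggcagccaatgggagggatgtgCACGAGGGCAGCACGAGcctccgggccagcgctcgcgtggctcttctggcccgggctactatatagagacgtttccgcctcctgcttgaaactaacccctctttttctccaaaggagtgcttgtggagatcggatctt
Glucose was not varied between the samples, and the match describes letters only.

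Peroxiredoxins, which reduce peroxides with electrons from thioredoxin, were within 1.5-fold throughout. PRDX1, the abundant cytosolic form, had an intensity of 10141 in C4-2B-MDVR and 8165 in C4-2B (0.31). PRDX4, the form of the endoplasmic reticulum, had 3097 in C4-2B-MDVR and 4299 in C4-2B (-0.47) and differed most of the 5. PRDX2, abundant in red cells (0.10), mitochondrial PRDX3 (-0.09) and PRDX6, which uses glutathione (0.09), were within 1.2-fold. The 4 PRDX2 probe sets ranged from -0.43 to 0.28 and the 2 of PRDX6 from -0.18 to 0.09, so the probe sets of either gene did not share a direction.

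Of the 4 glutathione peroxidases above the floor, 3 had a difference above 0, and the remaining one, GPX4, moved to 0.03 with quantile normalization and 0.02 with loess. GPX4, which reduces lipid peroxides in membranes and restrains ferroptosis, had 2573 in C4-2B-MDVR and 2588 in C4-2B (-0.01), the smallest difference of any member above the floor. GPX1, the general cytosolic form, had 2235 in C4-2B-MDVR and 1803 in C4-2B (0.31). GPX8, a membrane protein of the endoplasmic reticulum, had 476 in C4-2B-MDVR and 361 in C4-2B (0.40). GPX2, the gastrointestinal form, had 86.9 in C4-2B-MDVR and 62.4 in C4-2B (0.48). GPX3, the plasma form, had 19.8 in C4-2B-MDVR and 23.1 in C4-2B, and GPX7, a form of the endoplasmic reticulum, had 12.4 in C4-2B-MDVR and 10.9 in C4-2B. Both were under the floor on both arrays, so no difference could be read.

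Glutathione transferases, which join glutathione to electrophiles, included the member with the greatest difference. GSTM3, a mu-class transferase, had an intensity of 6222 in C4-2B-MDVR and 2735 in C4-2B, so it was 2.27-fold higher. A second GSTM3 probe set, with 49.6 in C4-2B-MDVR and 47.4 in C4-2B, was near the floor and lay at 0.07. MGST3, a microsomal transferase that also acts on lipid peroxides, had 1217 in C4-2B-MDVR and 754 in C4-2B (0.69), with a second probe set at 0.07. MGST2, which makes leukotriene C4, had 598 in C4-2B-MDVR and 867 in C4-2B (-0.54). MGST1, a microsomal transferase of the endoplasmic reticulum and outer mitochondrial membrane, lay at 0.17, with 4 probe sets from -0.18 to 0.46. GSTZ1, an enzyme of tyrosine breakdown, had 304 in C4-2B-MDVR and 448 in C4-2B (-0.56). GSTA4, which detoxifies the lipid aldehyde hydroxynonenal, had 380 in C4-2B-MDVR and 296 in C4-2B (0.36), with its second probe set at 0.31. GSTO1, of the omega class (0.09), and GSTK1, of mitochondria and peroxisomes (-0.14), were within 1.2-fold. GSTP1, which is known to be silenced by promoter methylation in most prostate cancers, had 129 in C4-2B-MDVR and 111 in C4-2B (0.22).

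The GSTP1 window, at chr11:67583562-67583861 (GRCh38.p14, plus strand), is shown because it holds the core of the antioxidant response element joined to an AP-1 site, in capitals.
GSTP1: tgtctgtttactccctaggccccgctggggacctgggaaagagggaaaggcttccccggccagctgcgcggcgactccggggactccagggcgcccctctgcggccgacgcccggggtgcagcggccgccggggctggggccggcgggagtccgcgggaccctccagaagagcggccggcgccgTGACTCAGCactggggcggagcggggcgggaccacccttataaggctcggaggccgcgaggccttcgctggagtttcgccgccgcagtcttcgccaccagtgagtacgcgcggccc
Methylation was not measured in these samples.

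Catalase and the iron-storing ferritin light chain were higher by similar amounts in C4-2B-MDVR. CAT, which splits hydrogen peroxide in peroxisomes, had an intensity of 2993 in C4-2B-MDVR and 1995 in C4-2B (0.59), and its second bright probe set lay at 0.69. FTL had 4221 in C4-2B-MDVR and 2649 in C4-2B (0.67), with a second probe set at 0.80. Both FTL probe sets carry the name ending that marks sequence shared with other transcripts, such as the many ferritin pseudogenes. SOD1, the copper-zinc superoxide dismutase, had 6230 in C4-2B-MDVR and 4858 in C4-2B (0.36). SOD3, the extracellular form, lay at -0.06 at 96.2 in C4-2B-MDVR and 100.2 in C4-2B.

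Repeat readings within a gene set how far single values can be read. The members had 94 probe sets, 81 of them above the floor, and 26 members had at least 2 of these. In 19 of the 26 all probe sets lay on the same side of 0 and in 7 they lay on both sides, namely NFE2L2, BACH1, TXN2, TXNRD2, PRDX2, PRDX6 and MGST1. The median span between a member's probe sets was 0.39 on the log2 scale, and 10 spans were over 0.5. Probe sets of a gene share the RNA sample and can read different transcript ends, so they are not replicates. Of the 10 members at 1.5-fold or more, HMOX1 had a single probe set, BACH1 had readings on both sides of 0, and TXNIP, GSR, CAT and FTL had readings on the same side, of which the second of GSR at -0.47 was nearest to 0. The other readings of ALDH3A2, NQO2, MGST3 and GSTM3 lay on the same side but nearer 0.

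**Figure D2:**
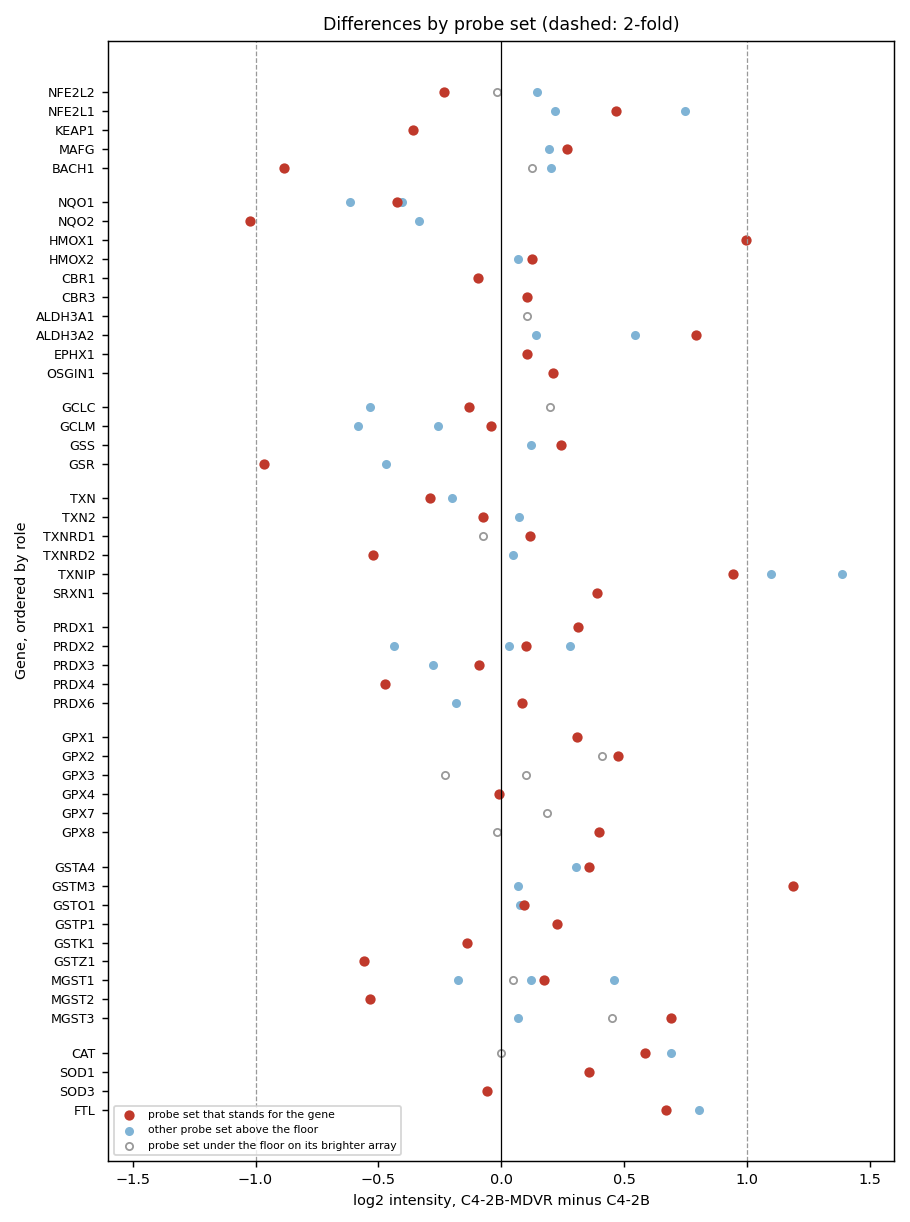
Log2 difference, C4-2B-MDVR minus C4-2B, of every probe set of the named members, ordered by role. Red points are the probe sets that stand for the genes, blue points the other probe sets above the floor and open grey points those under it; all 3 TXNIP points lie right of 0.9, while BACH1 has points on both sides of 0.

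**Figure D3:**
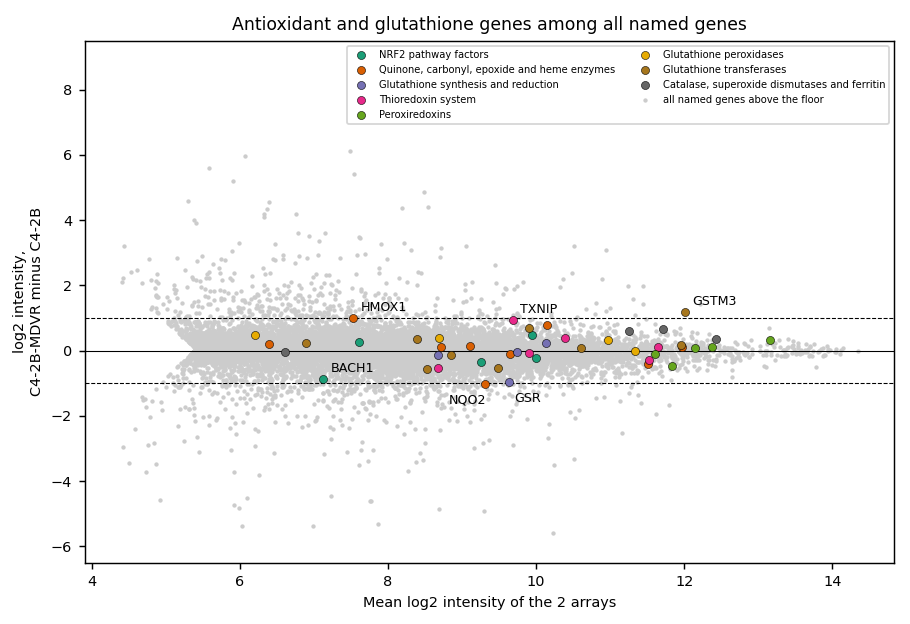
Log2 difference, C4-2B-MDVR minus C4-2B, against the mean log2 intensity of the 2 arrays for all 13437 named genes above the floor (grey) and for the 46 members above it (coloured by role). Dashed lines mark 2-fold; the members stay between -1.02 and 1.19 while all genes span -5.61 to 6.12.

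Genes that supply or extend these systems were counted in 7 lists that together hold 80 genes, 71 of them above the floor. Of the 71, 4 were 2-fold or more higher in C4-2B-MDVR (5.63%) and 2 were 2-fold or more lower (2.82%), and the median difference was 0.09. Over all genes above the floor these values were 3.17%, 3.50% and 0.04, which are also the background for each list below. The count of 4 fell to 2 with the mean of probe sets or the floor at the 75th percentile. It was 3 without probe sets whose names mark shared sequence and 7 with quantile normalization. The 7 measured partners of the NRF2 factors had a median of 0.19 and 0 genes beyond 2-fold. The largest differences there were in NFE2L3, a related factor (0.57), and the mitochondrial phosphatase PGAM5 (0.39), whose other probe set lay at -0.21. Of 9 NADPH-supplying enzymes, ME1, the cytosolic malic enzyme, was lower, with 702 in C4-2B-MDVR and 1811 in C4-2B (-1.37), and its other probe set above the floor lay at -2.28. IDH2, the mitochondrial isocitrate dehydrogenase, followed at 0.79, and the list median was 0.16.

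Of 15 genes of cystine uptake, glutathione turnover and glutaredoxins 0 were beyond 2-fold, and the median was -0.05. SLC7A11, the cystine importer that feeds glutathione synthesis, had 391 in C4-2B-MDVR and 664 in C4-2B (-0.76), and its 3 probe sets were all lower, from -0.88 to -0.45. GLRX2, a glutaredoxin of mitochondria, lay at -0.56. Among 9 other glutathione transferases, 2 were 2-fold or more higher and 0 lower. GSTM2 had 202 in C4-2B-MDVR and 62.4 in C4-2B (1.70). GSTA1 had 105 in C4-2B-MDVR and 29.3, under the floor, in C4-2B (1.84), so it was at least 2.50-fold higher against the floor, but its other probe set lay at -0.25. The probe set for GSTM2 is one whose name marks shared sequence, and mu-class transferases are alike enough that GSTM2 and GSTM3 may not be separate readings.

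In the list of heme and iron genes SLC40A1, the iron exporter ferroportin, was the 1 of 9 beyond 2-fold, with 85.2 in C4-2B-MDVR and 40.5, under the floor, in C4-2B (at least 2.03-fold against the floor). ACO1, an iron regulatory protein (0.53), came next, and TFRC, the transferrin receptor, lay at -0.28. Among 17 selenoproteins, methionine sulfoxide reductases and selenocysteine synthesis genes, 1 was higher and 1 lower by 2-fold or more, with a median of 0.01. SELENOP, the secreted selenium carrier, had 237 in C4-2B-MDVR and 562 in C4-2B (-1.25), with a second probe set at -1.75. SEPSECS, which completes selenocysteine on its transfer RNA, lay at 1.21, but its 5 probe sets ranged from -0.02 to 1.21. SELENOM, a selenoprotein of the endoplasmic reticulum, lay at 0.97 and was the nearest under 2-fold. The 5 sestrins and copper chaperones had 0 genes beyond 2-fold, but the median was 0.72. SESN1 (0.96), SESN3 (0.89) and SESN2 (0.72), stress-induced proteins that restrain growth signalling, were all higher, and SESN3 was read above the floor by 6 probe sets with differences of 0.89 to 2.42.

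**Figure D4:**
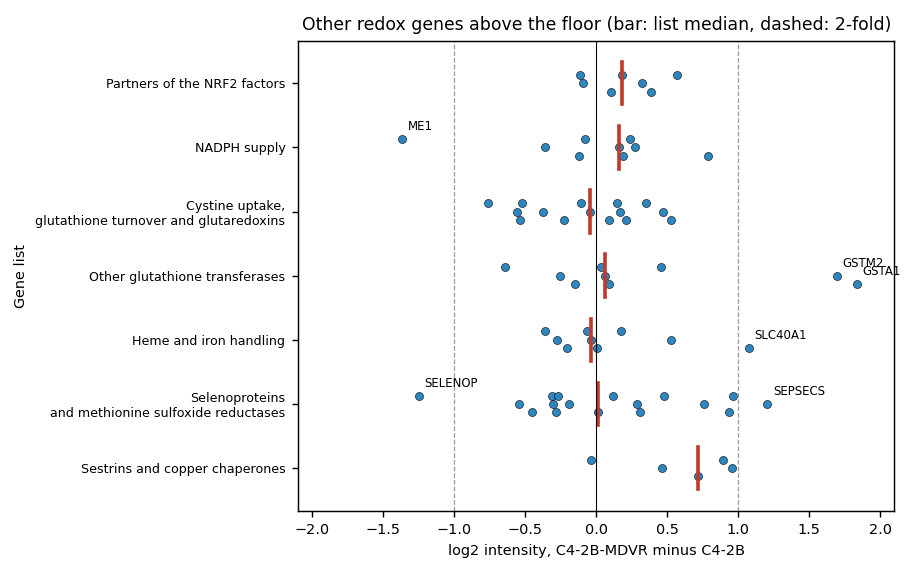
Log2 difference, C4-2B-MDVR minus C4-2B, of the genes above the floor in 7 lists of related redox genes, each point a gene and each red bar a list median. The 6 genes beyond 2-fold (dashed lines) are named, and the sestrin and copper chaperone list has its median at 0.72.

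Genes that lie next to a member on its chromosome were read to see whether the members differed alone. For each of the 10 members at 1.5-fold or more, the 3 nearest named genes above the floor on each side, by RefSeq order, were taken. NQO2 on chromosome 6 lay at -1.02 while its 6 neighbours ranged from -0.08 to 0.31. HMOX1 on chromosome 22 lay at 0.996 with neighbours from -0.71 to 0.16, where the lowest, ISX, did not reach the C4-2B-MDVR floor and is given against it, and ALDH3A2 on chromosome 17 at 0.79 with neighbours from -0.15 to 0.53. TXNIP on chromosome 1 lay at 0.94 with neighbours from -0.15 to 0.91, MGST3 on chromosome 1 at 0.69 with neighbours from -0.73 to 0.30, and CAT on chromosome 11 at 0.59 with neighbours from -2.13 to 0.42. In all, 6 of the 10 members lay outside the measured range of their neighbours, TXNIP by little (0.945 against 0.914 in LIX1L). The 10 were picked for a difference of 1.5-fold or more, which itself favours lying outside. Of all genes above the floor, 8.26% were that much higher and 9.32% that much lower. No like count was made for other genes, so no conclusion is drawn from 6 of 10.

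GSR on chromosome 8 differed in the same direction as its surroundings. All 6 of its neighbours were lower in C4-2B-MDVR, from -1.54 in UBXN8, next to it, to -0.11, with PPP2CB, a phosphatase subunit, at -0.67 and GTF2E2, a general transcription factor subunit, at -0.47. The 6 neighbours of FTL on chromosome 19 were all higher, from 0.09 to 0.68, and FTL at 0.67 lay within them. GSTM3 on chromosome 1 had neighbours from 0.06 to 1.70, all above 0, the highest being GSTM2 in the same gene cluster. Its neighbours GSTM2, GSTM1 and GSTM5 are mu-class genes read by probe sets whose names mark shared sequence, so they may not be readings separate from GSTM3. BACH1 on chromosome 21 lay at -0.88 and had 5 of 6 neighbours below 0. CLDN8 and KRTAP11-1 among these did not reach the floor on the C4-2B-MDVR array, and with such values raised to the floor the 6 ranged from -0.58 to 0.05. Counted that way, a setting added after seeing the data, 7 of the 10 members lay outside their neighbours. The choice of the 10 limits this count too. How often all 6 neighbours of other genes share a direction was not counted. DNA copy number was not measured in these samples.

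**Figure D5:**
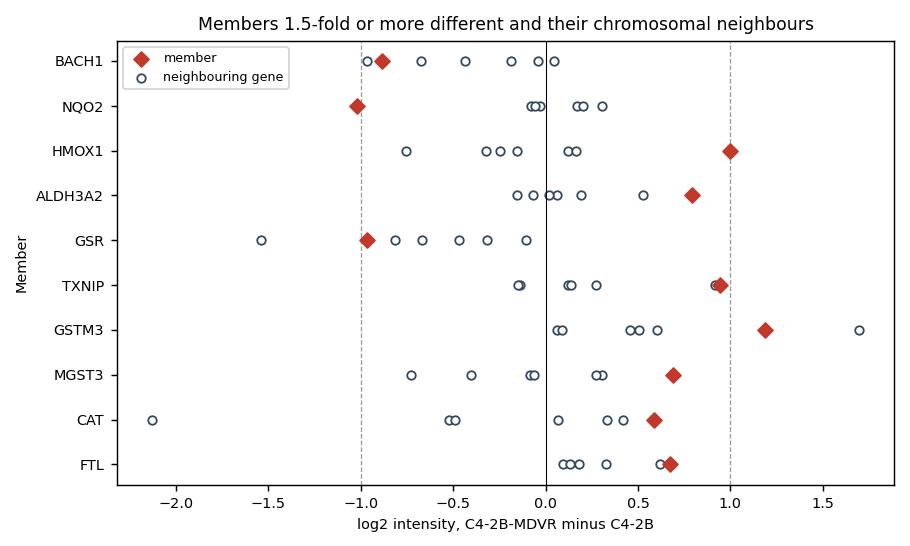
Log2 difference, C4-2B-MDVR minus C4-2B, of the 10 members at 1.5-fold or more (red diamonds) and of up to 3 neighbouring genes on each side (open circles, as measured, values under the floor included). The 6 neighbours of GSR all lie left of 0 and those of FTL and GSTM3 all lie right of it, while NQO2 and HMOX1 lie apart from theirs.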

How the data were processed

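Total RNA of C4-2B-MDVR and C4-2B cells, 1 sample each, was extracted with Trizol, amplified with the Ambion WT Expression Kit, fragmented and biotin-labelled, per the labels' protocols. That kit primes along whole transcripts, while the platform annotation is that of an array with probe sets near 3' ends. The effect on probe set values was not tested. The authors deposited 1 intensity per probe set and array, and the range of the values shows a linear scale. How they corrected background, normalized and summarized probes is not stated in the labels, and depth does not apply to arrays, whose number limits the precision. The analysis started from log2 of these values, with no further scaling.

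The table held 54675 probe sets, named by the platform annotation (41097 with 1 symbol), and symbols were checked by Entrez identifier against RefSeq (GCF_000001405.40). The probe set of highest mean log2 value stood for a gene. A gene counted when its brighter value reached the median log2 value of that array, and no test was possible with 1 array per line. Members, limits, lists and the rule for named genes were chosen with earlier results of these data known. All 51 members are accounted for, with both values where a difference reached 1.5-fold or the gene is a factor or common readout, and in the related lists the genes past 2-fold and the 2 of greatest difference. Other genes named, and the neighbour genes, were chosen after their values were seen. The steps were tested on simulated data, with planted shifts well past 2-fold in bright genes and little noise. That does not test genes near a limit. Alternatives were 3 other scalings, other floors and folds, the mean of probe sets, and other sets of probe sets. Python 3.11.15, numpy 2.4.6, pandas 2.3.3, statsmodels 0.14.6 and matplotlib 3.10.9 were used.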

Additional observations from a re-analysis of the deposited data

How the results depend on the processing

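With 1 array per line nothing here has an error, and the small counts turn on genes close to a limit. The count of members 2-fold or more higher was 1 as reported and was 3 with quantile normalization (GSTM3, HMOX1 and TXNIP). It was 0 without probe sets of shared sequence (names ending in _x_at or _s_at), where 36 members were above the floor in place of 46. TXNIP, read only by such probe sets, dropped out there, and GSTM3 was read by its probe set near the floor at 0.07. The count was 7 at 1.5-fold and 0 at 3-fold. With probe sets averaged it was 1 too, but TXNIP took the place of GSTM3. The count of members 2-fold or more lower was 1 as reported, 2 with median centring (NQO2 and GSR), and 0 with quantile normalization, loess, the mean of probe sets and without probe sets of shared sequence. It was 3 at 1.5-fold and 0 at 3-fold. The members' median stayed between 0.05 and 0.14 over all settings run. The related lists had 4 genes 2-fold or more higher, 7 with quantile normalization, 2 with the mean of probe sets and 2 with the floor at the 75th percentile. Without probe sets of shared sequence, where GSTM2 had no reading, the count was 3. In all settings run, 2 genes of these lists were 2-fold or more lower. With the looser letters TGANNNNGC, 27 members held a match in place of 10, against 47.1% of all genes. BACH1 lay at -0.19 with the mean of its probe sets, and PRDX2 (-0.01), PRDX6 (-0.05) and TXN2 (0.00062) crossed 0 there. TXNRD2 lay at 0.05 without probe sets of shared sequence, and GCLM, TXN2 and GPX4 were the 3 members that crossed 0 with quantile normalization. Of the single-gene and list values under these alternatives, 568 moved less than, and 12 moved past, a limit of 1.5-fold for a gene or 0.1 for a list median. No value past 2-fold changed sign. The 568 are no measure of stability. They include the other floors, values raised to the floor and probe sets with several symbols, which left every member's difference as it was (largest move 0). The limit of 1.5-fold is also wide, since 36 of the 46 members differed by less than that. No paired analysis was possible because each line has 1 array. The cause of these shifts was not tested, apart from the choice of probe sets.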
